A study of Mus musculus with 11 samples.

Results

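Of the 4033 nuclei profiled from mouse trigeminal ganglia 7 days after infraorbital nerve transection (IOT), 319 carried the injury profile. A nucleus was placed in this group where the summed UMIs (unique molecular identifiers, each standing for 1 captured RNA molecule) of Atf3, Sema6a, Sprr1a, Itgb6, Flrt3 and Gadd45a reached 4 and at least 2 of the 6 genes were detected. These 319 nuclei were 7.91% of the library (95% Clopper-Pearson interval 7.10 to 8.79%). They were compared with nuclei of the same library that had 0 UMIs of all 6 genes, of which there were 2841 (70.4%). The other 873 nuclei had some of the 6 genes and fell short of the gate. Because these 6 genes chose the nuclei, their levels describe the choice and are given only once, here. Sema6a was detected in 293 of the 319 nuclei, Atf3 in 248, Sprr1a in 145, Itgb6 in 135, Flrt3 in 130 and Gadd45a in 103. The median nucleus had 6 UMIs of the 6 genes, with a range of 4 to 40. Just inside the gate stood 84 nuclei with exactly 4 UMIs. Just outside it stood 98 nuclei with 3 UMIs and 8 nuclei with 4 or more UMIs of a single gene.

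The study profiled neuronal nuclei, enriched with an antibody to NeuN, and the day 7 library pooled the ganglia of 10 C57BL mice, over 6 weeks old, on the injured side. The study's methods give the strain as C57BL/6NCrl. The infraorbital nerve carries sensory axons of the maxillary branch from the whisker pad and snout, so the ganglion held transected neurons beside neurons whose axons ran in other branches or were spared. IOT ganglia were also taken at days 2, 21 and 75 (10, 10 and 6 mice). The remaining libraries came from uninjured wildtype controls (10 C57BL mice on the 10x platform and 16 mice on Drop-seq), from mice with facial skin cuts (10 mice) and from mice with scratch lesions on an FVBN/C57BL/129 mix background (10 mice). By the study's methods the scratching mice were transgenic, heterozygous for both Fos-tTA and a tetO transgene that encodes mCherry and an active form of Gnaq. All libraries together hold 40359 nuclei. Every IOT day is 1 library of pooled animals, so no value at day 7 alone has a replicate, and the intervals given for it cover counting error only. Reads from introns were counted with those from exons, and the authors removed clusters of non-neuronal nuclei before deposit.

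Sensory neurons whose peripheral axon is severed switch on a growth program that is known from sciatic and facial nerve lesions. The transcription factor Atf3 is its best known marker, acting with Jun and Sox11, and growth cone proteins, secreted peptides and cytokines follow. At the same time many genes of the mature neuron, among them ion channels, receptors and the transmitters of pain fibers, are known to be turned down.

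Applied unchanged to the other libraries, the gate took 15 of 4368 control 10x nuclei (0.343%), where Sprr1a is not listed, and 13 of 3178 Drop-seq nuclei (0.409%). It took 647 of 4611 nuclei at IOT day 2 (14.0%), 250 of 4046 at day 21 (6.18%) and 171 of 3634 at day 75 (4.71%). The paper clustered the same nuclei and placed a larger share of day 7 in its injured classes than the gate took. That share was close to its share at day 2, and at day 75 its share was smaller than that of the gate. Gate and clusters are different measures, and nuclei outside the gate are not shown to be uninjured. The day 7 library was the shallowest of the 10x libraries, with a median of 1747 UMIs per nucleus against 1928 to 4178.5 in the others. After each nucleus had been thinned to 1500 UMIs, 148 of the 2550 day 7 nuclei deep enough (5.80%, interval 4.93 to 6.78%) passed the gate, and 1483 shallower nuclei were left out. The thinned shares were 0 of 4368 in the 10x control (upper limit 0.0844%), 6.74% at day 2, 2.62% at day 21 and 1.27% at day 75. At day 7 the share of nuclei in the gate was therefore above that in the control at either depth, and the thinned day 7 interval lay above the values of days 21 and 75. Thinning left out 0 nuclei of the control and of the other IOT days. At day 7 injury-profile nuclei were deeper than zero nuclei, and the part of the nuclei left out in the thinned day 7 share was not tested. These are single libraries, and a difference between them cannot be told apart from a difference between pools of mice. Day 7 nuclei shared 0 to 53 cell barcodes with each of the other libraries.

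**Figure D1:**
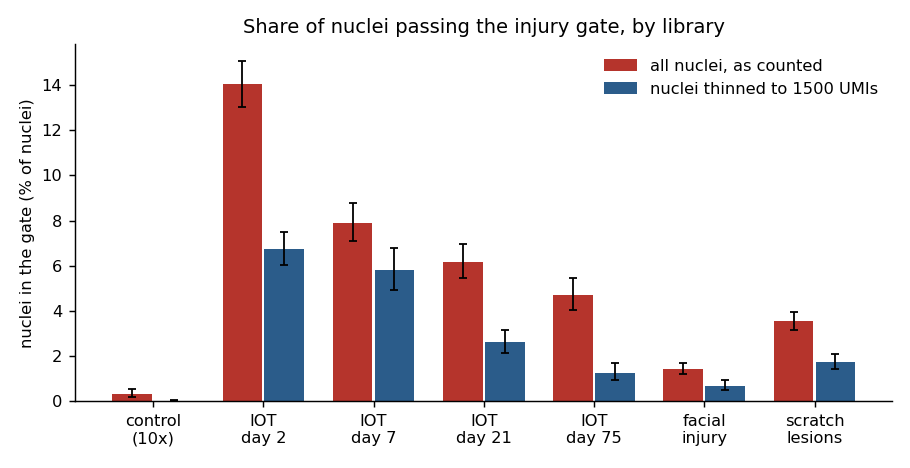
Share of nuclei that passed the injury gate (% of nuclei, vertical axis) in 7 10x libraries, as counted (red) and with every nucleus thinned to 1500 UMIs (blue), with bars for 95% Clopper-Pearson intervals. At day 7 the shares were 7.91% as counted and 5.80% thinned, against 0.343% and 0% in the control.

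Injury-profile nuclei were deeper than zero nuclei. They had a median of 2384 UMIs (966 to 15143), against 1650 for all zero nuclei. Each injury-profile nucleus was therefore paired with the zero nucleus nearest to it in UMIs, giving 319 matched zero nuclei with a median of 2383 UMIs (965 to 13162). The injury-profile nuclei summed to 941519 UMIs and the matched zero nuclei to 933417, and they expressed a median of 1379 and 1465 genes. Levels are given as CPM, counts of a gene scaled to the same total of UMIs in each group, with the 6 gate genes and 3 genes that overlap them left out. One UMI was worth 1.06 CPM in injury-profile nuclei and 1.07 CPM in matched zero nuclei. Neuronal markers were present in both groups, though lower in injury-profile nuclei. Of 11 sensory neuron markers 3 were at most 0.5 times and 0 at least 2 times the level of matched zero nuclei, against 10.4% and 6.63% of all genes compared. Their median log2 ratio was -0.79, against -0.15 over all genes. The markers summed to 4678 CPM in injury-profile nuclei and 6051 CPM in matched zero nuclei. Uchl1, a neuronal ubiquitin hydrolase, had 902 and 801 CPM, the RNA-binding protein gene Elavl4 420 and 793 CPM, and the peripheral intermediate filament gene Prph 771 and 987 CPM. Rbfox3, the gene of the NeuN antigen itself, was lower, with 110 CPM in injury-profile nuclei and 373 CPM in matched zero nuclei. Across the 4 IOT libraries Rbfox3 fell by 1.07 on the log2 scale in injury-profile nuclei (adjusted p = 0.0005, edgeR quasi-likelihood test). RNA of the antigen used to enrich the nuclei thus moved with the profile. The NeuN protein was not measured, and its part in which nuclei were captured was not tested.

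RNA of other cell types was measured beside every result. The 10 Schwann cell markers tested summed, with 4 rarer ones, to 2094 CPM in injury-profile nuclei and 1851 CPM in matched zero nuclei, and 15 satellite glia markers to 582 and 373 CPM. The myelin gene Mbp was detected in 49.5% of injury-profile nuclei and 43.6% of matched zero nuclei (at medians of 2384 and 2383 UMIs), or 29.5% and 28% of thinned nuclei. Whether these UMIs came from free RNA was not tested. Of the glial markers tested, Glul (246 against 112 CPM) and Ncam1 (289 against 144 CPM) were at least 2-fold higher in injury-profile nuclei. Both rose in the 4-library fit, and neither is confined to glia. Fibroblast markers summed to 160 and 104 CPM, vascular markers to 124 and 149 CPM, and leukocyte markers to 243 and 181 CPM, of which Cx3cr1 alone made up 221 and 167 CPM and rose by 0.51 in the fit. The annotated span of Cx3cr1 overlaps Csrnp1, Gorasp1 and Xirp1 on the same strand, and whether its UMIs were leukocyte RNA was not tested. The part of fibroblasts, vascular cells and leukocytes in the results was not tested. Of these lists, Slc1a2, Cldn5, Kdr, Ly6c1, Acta2, Ptprc, C1qb and Lyz2 had 0 UMIs in injury-profile nuclei and are named for that reason. Their absence does not show that these cell types were absent. Other members were detected there, in both directions. Apoe had 144 CPM in injury-profile nuclei and 93.2 CPM in matched zero nuclei, Tek 20.2 and 26.8 CPM, and Rgs5 18.1 and 67.5 CPM. The fibroblast marker Pdgfra had 35 CPM in injury-profile nuclei and 8.57 CPM in matched zero nuclei and rose by 1.44 in the fit (edgeR adjusted p = 0.0167), and the vascular marker Flt1 had 55.2 and 19.3 CPM and rose by 1.66 (adjusted p = 0.000245). Mitochondrial genes took 0.188% of UMIs in injury-profile nuclei and 0.213% in matched zero nuclei. The nuclear noncoding RNA Malat1 took 14.5% of UMIs in injury-profile nuclei and 9.89% in matched zero nuclei, and the median log2 ratio over all genes tested was -0.15.

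With at least 20 CPM in the higher group, 8556 genes could be compared at day 7. Of these, 567 (6.63%) were at least 2-fold higher in injury-profile nuclei and 891 (10.4%) were at most 0.5 times the level of matched zero nuclei. Scaling by TMM in place of the total moved the 2 counts to 714 and 671, so the split between higher and lower calls depends on the scaling. All 567 higher calls and 671 of the 891 lower calls were kept. A gene that reached 20 CPM in 1 group only could be called only toward that group. This holds for members of the gene lists below as well, so their day 7 counts are descriptions and not tests. Because a single library allows no test, the same gate and the same matching were applied to the other IOT libraries, and sums over injury-profile and matched zero nuclei of the 4 libraries were compared with library as a block. In that edgeR fit 1081 of 10815 genes (10.0%) rose in injury-profile nuclei and 779 (7.20%) fell at an adjusted p under 0.05, with 3202 genes at an unadjusted p under 0.05. Without the day 2 library, which had the most injury-profile nuclei, 520 rose and 383 fell. The p-values measure the spread between 4 libraries that differ in day, in depth and in mice, not between animals. Of the genes called at day 7, 424 of the 532 higher genes that entered the fit rose in it, 427 of the 883 lower genes fell, and 0 of either moved the other way. That fit includes the day 7 sums that gave the calls, so these counts are no independent evidence of agreement.

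A fit on days 2, 21 and 75 alone used none of the day 7 nuclei. It called 692 of 11118 genes higher (6.22%) and 417 lower (3.75%). Among the 533 genes higher at day 7 that entered it, 349 (65.5%) rose, 0 fell, and 519 (97.4%) had a difference of the same sign. Among the 884 genes lower at day 7, 259 (29.3%) fell, 1 rose, and 788 (89.1%) had the same sign. The genes that were high in injury-profile nuclei at day 7 were thus high under the same gate in the other libraries far more often than the background share of all genes.

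**Figure D2:**
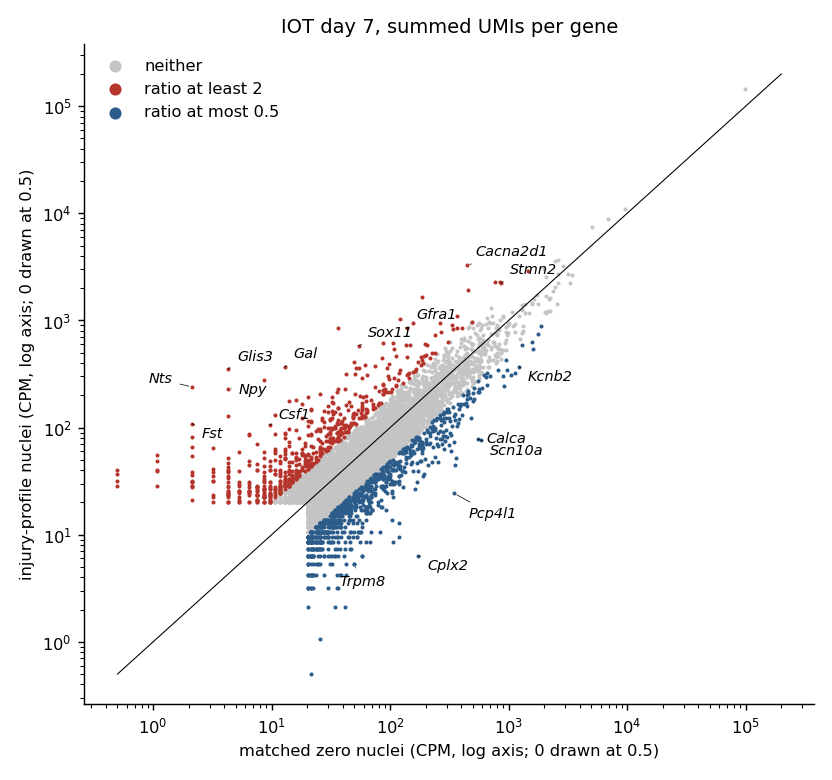
CPM of each gene at IOT day 7 in injury-profile nuclei (vertical axis, log scale) against matched zero nuclei (horizontal axis, log scale), with genes at a ratio of at least 2 in red, at most 0.5 in blue and the diagonal as a line; genes with 0 UMIs are drawn at 0.5 CPM. Nts, Glis3, Npy, Fst and Gal lie far above the diagonal, and Cplx2, Pcp4l1 and Scn10a below it.

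Among the genes named, the largest ratio at day 7 belonged to Nts, the gene of the neuropeptide neurotensin (chromosome 10 from 102481756 to 102490486, minus strand, GRCm38). It had 225 UMIs in injury-profile nuclei and 2 UMIs in matched zero nuclei, or 239 against 2.14 CPM, a ratio of 112 with a wide counting interval of 30.5 to 927. The sum over all 4368 control 10x nuclei, not matched on depth, gave 4.06 CPM. Nts was detected in 31.0% of injury-profile nuclei and 0.627% of matched zero nuclei, and after thinning in 21.5% (16.8 to 26.8%) and 0.727%. In injury-profile nuclei of days 2, 7, 21 and 75 it stood at 35.3, 239, 442 and 138 CPM, against 2.75, 2.14, 13.3 and 7.45 CPM in matched zero nuclei. All 4 values in injury-profile nuclei lay above all 4 in matched zero nuclei. The fit gave a log2 fold change of 4.83 ± 0.26 (SE, 4 libraries, adjusted p = 2.68e-07), and 4.51 without day 7 (adjusted p = 1.64e-06).

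The peptide genes Npy and Gal behaved alike. Npy, for neuropeptide Y (chromosome 6 from 49822710 to 49829507), had 232 CPM in injury-profile nuclei and 4.29 CPM in matched zero nuclei, a ratio of 54.0 (20.8 to 200.1). Gal, for galanin (chromosome 19 from 3409915 to 3414544), had 366 and 12.9 CPM, a ratio of 28.5 (16.1 to 55.7), with 18.4 CPM over all control 10x nuclei. Both peptides are known to appear in axotomized sensory neurons. Over days 2, 7, 21 and 75 Npy had 20.5, 232, 171 and 56.1 CPM in injury-profile nuclei, against 2.44, 4.29, 7.98 and 2.98 CPM in matched zero nuclei. Gal had 266, 367, 173 and 29.5 CPM in injury-profile nuclei, against 23.5, 12.9, 16 and 5.21 CPM in matched zero nuclei. Their log2 fold changes were 4.48 ± 0.28 for Npy and 3.78 ± 0.23 for Gal (SE, edgeR adjusted p = 6.87e-07 and 6.42e-07). Adcyap1, whose product PACAP is a peptide of some uninjured pain fibers as well, had 154 CPM in injury-profile nuclei and 36.4 CPM in matched zero nuclei, and rose by 2.02 ± 0.17 over the 4 libraries (adjusted p = 8.68e-06). Of the injury peptides listed, Penk (5.31 and 1.07 CPM) and Ucn (7.43 and 0 CPM) stayed under 20 CPM, and Cck had 0 UMIs in injury-profile nuclei. The 3 that could be tested at day 7, Nts, Npy and Gal, reached 20 CPM only in injury-profile nuclei, so they could not have been called lower. They are also among the genes that the paper singled out as induced in these samples, and are no independent evidence of a direction. In the fit 3 of 3 rose, against 10.0% of all genes, with a median log2 fold change of 4.48 against 0.01 over all genes. The fit holds the same day 7 sums, and its low-count filter also admits genes through the group where they are high. This count is therefore no independent evidence of a direction either.

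Detection of the 3 peptides overlapped in part among the injury-profile nuclei. None of the 3 was detected in 144 of the 319 nuclei (45.1%, median 2121 UMIs). Nts alone was seen in 44 nuclei, Gal alone in 41 and Npy alone in 26, while 24 had Npy with Nts, 16 had Gal with Nts, 9 had Gal with Npy and 15 had all 3 (median 3703 UMIs). A missing UMI at this depth does not show that a nucleus lacked the RNA. Nts was found together with Gfra1, the receptor subunit for GDNF, in 79 nuclei and without it in 20. Npy was found with Gfra1 in 64 nuclei and without it in 10, and Gal with Gfra1 in 48 nuclei and without it in 33. Gfra1 itself was in 68.7% of injury-profile nuclei, and nuclei with Gfra1 were deeper (median 2486 to 2981.5 UMIs, by Gal) than those without (2051 to 2128 UMIs).

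Promoters are shown for Nts and for S100a11, a calcium-binding protein gene, because they are the higher genes with the AP-1 motif, the element bound by Jun and Atf3-containing dimers, at the largest day 7 ratio, and at the largest ratio among those with 2 copies. They were picked for display after their values had been seen. S100a11 had 148 CPM in injury-profile nuclei and 21.4 CPM in matched zero nuclei, a ratio of 6.89 (4.29 to 11.6), and rose by 2.24 ± 0.22 over the 4 libraries (edgeR adjusted p = 2.43e-05). The sequences are RefSeq promoters of the GRCm38.p6 build, each 300 bases that run 5′ to 3′ on the gene's strand from 250 bases before the start of transcription to 50 after it. Capitals mark TGACTCA or TGAGTCA, the 2 strands of the motif.
Nts (chr10:102490369-102490668, minus strand): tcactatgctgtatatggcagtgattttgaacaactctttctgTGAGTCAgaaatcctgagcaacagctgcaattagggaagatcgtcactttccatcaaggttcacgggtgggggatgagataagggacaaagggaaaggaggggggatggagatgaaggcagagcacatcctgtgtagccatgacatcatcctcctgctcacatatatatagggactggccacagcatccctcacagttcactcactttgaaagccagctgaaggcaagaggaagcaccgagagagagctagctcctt
S100a11 (chr3:93520246-93520545, plus strand): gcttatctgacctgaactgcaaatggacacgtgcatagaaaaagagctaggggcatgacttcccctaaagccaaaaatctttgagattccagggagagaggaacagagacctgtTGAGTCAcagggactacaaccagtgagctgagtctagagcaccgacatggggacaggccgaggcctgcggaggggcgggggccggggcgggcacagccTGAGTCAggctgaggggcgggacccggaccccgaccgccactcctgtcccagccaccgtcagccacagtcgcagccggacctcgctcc
The motif begins 207 bases before the start in Nts, and 136 and 38 bases before it in S100a11. Across the genes higher at day 7, 385 of 567 had a promoter in the table, and 16 of their 483 promoters (3.31%, interval 1.91 to 5.32%) held the motif. The share was 3.96% for genes lower at day 7, 3.47% for all genes at 20 CPM or more and 5.20% for all promoters, so it was not set apart in the higher genes. The palindrome TGACGTCA, the CRE element that Atf3 dimers also bind, was in 12 of the 483 promoters (2.48%, interval 1.29 to 4.30%). It was in 1.54% of the promoters of genes lower at day 7, 3.10% of those of all genes at 20 CPM or more and 1.79% of all promoters. These are matches of letters within 300 bases and say nothing of binding.

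Genes of axon regeneration were higher in injury-profile nuclei. Of 24 regeneration-associated genes tested at day 7, 11 were at least 2-fold higher and 2 at most 0.5 times the level of matched zero nuclei, against 6.63% and 10.4% of all genes, and the median log2 ratio of the list was 0.34. Their summed level was 9041 CPM in injury-profile nuclei and 4808 CPM in matched zero nuclei, with 4196 CPM over all control 10x nuclei. In the fit 16 of 26 rose and 2 fell, against 10.0% and 7.20% of all genes. Sox11, a transcription factor of axon growth (chromosome 12 from 27334264 to 27342574), had 583 CPM in injury-profile nuclei and 54.6 CPM in matched zero nuclei, a ratio of 10.7 (8.0 to 14.5). It was detected in 70.5% of injury-profile nuclei and 12.9% of matched zero nuclei, or 56.0% and 8.73% after thinning. Over days 2, 7, 21 and 75 it had 540, 584, 708 and 269 CPM in injury-profile nuclei, against 88.2, 54.7, 94.0 and 54.3 CPM in matched zero nuclei, with no overlap (log2 fold change 2.86 ± 0.17, adjusted p = 5.76e-07).

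Among the same genes, Stmn2, a microtubule regulator of growing axons, had 2246 CPM in injury-profile nuclei and 857 CPM in matched zero nuclei, a ratio of 2.62 (2.42 to 2.85). Its log2 fold change over the 4 libraries was 1.17 ± 0.15 (edgeR adjusted p = 0.000177). Other members that passed both measures, named after their values had been seen, were the growth cone protein gene Gap43 (604 and 196 CPM), Jun (217 and 84 UMIs), the adhesion molecule gene Chl1 (587 and 137 CPM), the BMP effector Smad1 (459 and 139 CPM), Klf6 (105 and 40.7 CPM), Stmn4 (193 and 32.1 CPM) and the small heat shock protein gene Hspb1 (277 and 117 CPM). Tuba1a, an alpha-tubulin gene long known to rise after axotomy, stood just past 2-fold (978 and 486 CPM). The 2 members that were lower were Ngfr, the p75 neurotrophin receptor, with 52 CPM in injury-profile nuclei and 359 CPM in matched zero nuclei, and Crtac1. Several members were within 1.5-fold at day 7, among them Anxa2 (500 and 449 CPM), Klf7 (848 and 673 CPM), Stat3 (273 and 250 CPM) and Basp1 (261 and 236 CPM), though Klf7 and Basp1 rose by 0.44 each in the fit.

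Of 37 cytoskeleton and growth cone genes 7 were higher and 0 lower, against 6.63% and 10.4% of all genes, with a median log2 ratio of -0.04. The 7 were the kinase gene Tnik (ratio 8.80), the actin-binding genes Lmo7 (6.82) and Palld (5.08), the ankyrin gene Ank3 (2.97), Cttnbp2 (2.96), Nav2 (2.89) and Myo10 (2.12), a motor of filopodia. Myo10 had 851 CPM in injury-profile nuclei and 401 CPM in matched zero nuclei, with 69.1 CPM over all control 10x nuclei. In the fit 14 of 38 rose and 3 fell, against 10.0% and 7.20% of all genes. The neurofilament gene Nefl had 1203 CPM in injury-profile nuclei and 2028 CPM in matched zero nuclei. Tubb6, a beta-tubulin gene outside the list, had 52 UMIs in injury-profile nuclei and 1 UMI in matched zero nuclei (ratio 51.6, interval 8.85 to 2075), and rose by 3.77 ± 0.35 (adjusted p = 1.96e-05).

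Several signaling and matrix genes were also high. Csf1, the macrophage and microglia growth factor released by injured sensory neurons (chromosome 3 from 107741048 to 107760469), had 106 CPM in injury-profile nuclei and 9.64 CPM in matched zero nuclei, a ratio of 11 (5.58 to 24.8). It was detected in 22.9% of injury-profile nuclei and 2.82% of matched zero nuclei. Over the 4 libraries Csf1 had 58.1, 106, 58.4 and 23.0 CPM in injury-profile nuclei in day order, against 6.41, 9.65, 5.32 and 5.96 CPM in matched zero nuclei (log2 fold change 3.19 ± 0.23, adjusted p = 2.79e-06). Of 15 cytokine genes tested at day 7, 3 were higher and 1 lower, against 6.63% and 10.4% of all genes. The others were Tnfrsf12a, the receptor Fn14 (40.4 and 7.5 CPM), and Il34, whose product shares a receptor with Csf1 (46.7 and 21.4 CPM). Csf1 and Tnfrsf12a reached 20 CPM only in injury-profile nuclei, so they could not have been called lower. Il6st, Lifr and Jak1, which carry gp130 cytokine signals, had ratios of 0.804, 1.07 and 1.36.

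Of the GDNF and neurotrophin receptors, Gfra1 had 853 CPM in injury-profile nuclei and 139 CPM in matched zero nuclei (ratio 6.12, 5.08 to 7.43), while its partner Ret had 390 and 447 CPM (ratio 0.873, 0.756 to 1.01). Gfra1 rose by 2.13 ± 0.18 across the 4 libraries (edgeR adjusted p = 8.14e-06), and Ret was not called (log2 fold change 0.12 ± 0.10, adjusted p = 0.486). A pair of TGF-beta family genes were among the largest ratios. Fst, the activin inhibitor follistatin, had 108 CPM in injury-profile nuclei and 2.14 CPM in matched zero nuclei (102 and 2 UMIs, ratio 50.6, 13.6 to 423), and Acvr1c, the receptor ALK7, had 54.2 and 2.14 CPM (51 and 2 UMIs, ratio 25.3, 6.65 to 214). Fst and Acvr1c rose by 3.96 ± 0.30 and 4.42 ± 0.29 over the 4 libraries (adjusted p = 4.10e-06 and 1.01e-06).

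Protease and matrix genes numbered 8 higher and 1 lower of 20 tested at day 7 (median log2 ratio 0.42), against 6.63% and 10.4% of all genes. In the fit 8 of 25 rose and 3 fell, against 10.0% and 7.20%. Ecel1, a neuronal endopeptidase induced by nerve injury, had 65.9 CPM in injury-profile nuclei and 2.14 CPM in matched zero nuclei (62 and 2 UMIs, ratio 30.7, 8.16 to 259). The matrix gene Frem3 had 130 and 4.29 CPM (ratio 30.2, 11.5 to 113) and gave the largest fold change of the fit among the genes named, 5.34 ± 0.21 (adjusted p = 2.20e-08). The membrane metalloproteinase Mmp16 had 1027 and 121 CPM, the sheddase Adam8 85.0 and 6.43 CPM, the protease inhibitor Timp3 228 and 36.4 CPM, and the lower member was Adam12 with 8.50 and 63.2 CPM. Ecel1, Frem3 and Adam8 reached 20 CPM only in injury-profile nuclei, and Adam12 only in matched zero nuclei. Each could therefore be called in a single direction only. Of 8 integrin subunits tested, Itga7, a laminin receptor needed for axon regrowth in mice, had 382 CPM in injury-profile nuclei and 61.1 CPM in matched zero nuclei, and its partner Itgb1 had 213 and 91.1 CPM. Itga7 rose by 2.07 ± 0.22 and Itgb1 by 0.95 ± 0.13 (adjusted p = 5.37e-05 and 0.000302). Of 34 axon guidance genes 3 were higher and 5 lower at day 7 (median log2 ratio -0.08), near the 6.63% and 10.4% of all genes. More of them passed the fit, where 10 of 37 rose and 7 fell, against 10.0% and 7.20%.

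Other leading genes had less clear links to axon growth. Glis3, a Krüppel-like zinc finger gene best known from pancreatic beta cells, had 335 UMIs in injury-profile nuclei and 4 in matched zero nuclei (356 and 4.29 CPM, ratio 83.0, 32.1 to 307). It rose by 4.64 ± 0.31 over the 4 libraries (edgeR adjusted p = 1.35e-06) and was detected in 39.2% of injury-profile nuclei against 1.25% of matched zero nuclei. Star, the mitochondrial cholesterol carrier of steroid synthesis, had 81.8 and 2.14 CPM (77 and 2 UMIs, ratio 38.2, 10.2 to 321), and the cholesterol exporter Abca1 had 361 and 54.6 CPM. Of 18 genes of cholesterol synthesis and its control, Abca1 and Hsd17b7 (140 and 34.3 CPM) were higher and 0 were lower, near the 6.63% and 10.4% of all genes (median log2 ratio -0.01). The octamer-binding factor Pou2f1 had 319 and 50.4 CPM, and the carbonic anhydrase gene Car3 64.8 and 3.21 CPM (61 and 3 UMIs, ratio 20.2, 6.58 to 100.4). A pair of intergenic noncoding transcripts stood with them, Gm29266 on chromosome 14 (844 and 36.4 CPM, ratio 23.2) and 4930509E16Rik on chromosome 9 (279 and 8.57 CPM, ratio 32.6). They rose by 3.24 ± 0.33 and 4.03 ± 0.23 (adjusted p = 3.99e-05 and 4.89e-07).

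Stress and apoptosis genes were mixed. Of 22 tested at day 7, 5 were higher and 1 lower (median log2 ratio 0.03), against 6.63% and 10.4% of all genes. In the fit 4 of 28 rose and 2 fell, near the 10.0% and 7.20% of all genes. Hrk, a BH3-only death gene induced in axotomized neurons, had 87.1 CPM in injury-profile nuclei and 6.43 CPM in matched zero nuclei (82 and 6 UMIs, ratio 13.5, 5.96 to 38.0). It was too rare at day 2 to enter the fit, where injury-profile nuclei had 5.93 CPM and matched zero nuclei 1.53 CPM. At days 21 and 75 it had 54.9 and 38.1 CPM in injury-profile nuclei, against 1.77 and 0.745 CPM in matched zero nuclei. The cell cycle inhibitor Cdkn1a (166 and 18.2 CPM), the phosphatase gene Dusp1 (37.2 and 10.7 CPM) and Gadd45g (66.9 and 21.4 CPM) were also higher. Hrk, Cdkn1a and Dusp1 reached 20 CPM only in injury-profile nuclei, so they could not have been called lower. Bcl2, which protects from apoptosis, was lower, with 31.9 CPM in injury-profile nuclei and 104 CPM in matched zero nuclei. Most immediate early genes were under 20 CPM. The 2 higher ones were the AP-1 member Fosl1, with 24 and 5 UMIs, and the clock gene Per1 (53.1 and 19.3 CPM), and Fos had 1.06 and 4.29 CPM. Fosl1 and Per1 likewise reached 20 CPM only in injury-profile nuclei.

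Genes of transmission and excitability were followed by list. Each count is set against the 6.63% of all genes that were higher and the 10.4% that were lower at day 7. Members that reached 20 CPM only in matched zero nuclei, among them Calcb, Nmb, Cartpt, Trpm8 and Trpv1, could not have been called higher. Of 6 nociceptor peptide genes tested at day 7, 5 were lower and 1, Adcyap1, was higher. Calca, the gene of calcitonin and CGRP (chromosome 7 from 114631478 to 114636357), had 77.5 CPM in injury-profile nuclei and 550 CPM in matched zero nuclei, a ratio of 0.141 (0.109 to 0.181), with 415 CPM over all control 10x nuclei. Over days 2, 7, 21 and 75 it had 231, 77.6, 224 and 314 CPM in injury-profile nuclei, against 327, 550, 539 and 529 CPM in matched zero nuclei, and the 2 sets did not overlap. Its log2 fold change was -1.17 ± 0.25 (adjusted p = 0.00598), and -0.78 without day 7 (adjusted p = 0.00981). Tac1, the substance P gene, had 70.1 and 247 CPM, Calcb 5.31 and 49.3 CPM, Nmb 10.6 and 49.3 CPM and Cartpt 5.31 and 20.4 CPM at day 7. Calca was detected in 16% of injury-profile nuclei and 33.9% of matched zero nuclei, or 10.9% and 27.6% after thinning.

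Sodium channel genes were lower for 6 of 14 and higher for 0, against 10.4% and 6.63% of all genes (median log2 ratio -0.76). Scn10a, the Nav1.8 channel of pain fibers (chromosome 9 from 119608456 to 119719322), had 76.5 CPM in injury-profile nuclei and 580 CPM in matched zero nuclei, a ratio of 0.132 (0.102 to 0.169), with 536 CPM over all control 10x nuclei. In day order it had 157, 76.6, 102 and 258 CPM in injury-profile nuclei, against 453, 580, 365 and 497 CPM in matched zero nuclei, with no overlap (log2 fold change -1.67 ± 0.21, adjusted p = 0.00015). It was detected in 9.09% of injury-profile nuclei and 41.4% of matched zero nuclei, or 8.36% and 36.7% after thinning. Scn1a (64.8 and 190 CPM), Scn11a (34 and 80.3 CPM) and the beta subunit gene Scn2b (10.6 and 56.8 CPM) were also lower, and Scn8a, the main channel of nodes of Ranvier, had 273 and 397 CPM. Scn3a, an embryonic channel gene, had 262 CPM in injury-profile nuclei and 162 CPM in matched zero nuclei, under the 2-fold limit at day 7, and was the 1 member that rose in the fit (0.51 ± 0.13, edgeR adjusted p = 0.0171).

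Of 32 potassium channel genes tested at day 7, 21 were lower and 2 higher, against 10.4% and 6.63% of all genes, with a median log2 ratio of -1.38 against -0.15 over all genes, and in the fit 21 of 37 fell and 2 rose, against 7.20% and 10.0%. Their summed level was 4514 CPM in injury-profile nuclei and 8571 CPM in matched zero nuclei, with 11618 CPM over all control 10x nuclei. Kcnb2, a delayed rectifier subunit, had 371 and 1216 CPM, a ratio of 0.305 (0.270 to 0.344), and fell by 1.25 ± 0.15 (edgeR adjusted p = 0.000108). Named after their values had been seen, Kcns1, which modifies such channels (4.25 and 37.5 CPM), the juxtaparanodal Kcna2 (73.3 and 345 CPM) and Kcnq5 (27.6 and 127 CPM) had the smallest ratios among the members that also fell in the fit. The 2 higher members were the calcium-activated Kcnma1 (313 and 141 CPM) and the M-current subunit Kcnq3 (405 and 190 CPM), both of which rose in the fit.

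Calcium channel genes differed in direction. Cacna2d1, the alpha2delta subunit that binds gabapentin and pregabalin (chromosome 5 from 15934691 to 16374511), had 3080 UMIs in injury-profile nuclei and 412 UMIs in matched zero nuclei, a ratio of 7.41 (6.69 to 8.23). Over days 2, 7, 21 and 75 it had 4505, 3275, 4093 and 1365 CPM in injury-profile nuclei, against 606, 442, 666 and 474 CPM in matched zero nuclei. The groups did not overlap (log2 fold change 2.57 ± 0.21, adjusted p = 6.71e-06). Cacna2d1 was the 1 higher gene of 14 tested, of which 5 were lower, against 6.63% and 10.4% of all genes, and made the summed level of the list higher as well, 5505 against 3438 CPM, while its relative Cacna2d2 had 30.8 and 92.1 CPM and Cacnb4, a beta subunit, 216 and 555 CPM. The median log2 ratio of the 14 was -0.63, opposite in sign to the change of the sum.

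Genes of sensory transduction were lower for 9 of 20 and higher for 2, against 10.4% and 6.63% of all genes, and in the fit 14 of 24 fell and 1 rose, against 7.20% and 10.0%. The cold channel Trpm8 had 5 UMIs in injury-profile nuclei and 46 in matched zero nuclei (5.31 and 49.3 CPM, ratio 0.108, 0.0334 to 0.270), with 122 CPM over all control 10x nuclei, and fell by 1.61 ± 0.19 (edgeR adjusted p = 9.86e-05). The heat channel Trpv1 had 9.56 and 25.7 CPM, Trpm3 94.5 and 231 CPM, Htr3a 3 and 34 UMIs (ratio 0.0875, 0.0172 to 0.278), and the touch channel Piezo2 537 and 843 CPM, a ratio of 0.637 (0.569 to 0.714). The higher genes were Trpv2 (89.2 and 35.4 CPM) and P2rx5 (31.9 and 13.9 CPM), of which Trpv2 alone rose in the fit. Inhibitory receptors were lower for 7 of 16 and higher for 2, against 10.4% and 6.63% of all genes. The mu opioid receptor gene Oprm1 had 26.6 CPM in injury-profile nuclei and 163 CPM in matched zero nuclei, a ratio of 0.163 (0.102 to 0.25), and fell by 1.39 ± 0.18 (adjusted p = 0.000174). Its relatives Oprd1, Oprk1 and Oprl1 had at most 7.43 CPM in injury-profile nuclei. Gabrg1, a GABA-A receptor subunit, was higher (93 and 28 UMIs), and the alpha2 adrenergic receptor Adra2c had 1 UMI in injury-profile nuclei and 24 in matched zero nuclei (ratio 0.0413, 0.001 to 0.253).

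Glutamate receptor genes were lower for 6 of 16 and higher for 3, against 10.4% and 6.63% of all genes. The lower ones included the AMPA subunit Gria2 (44.6 and 208 CPM), the NMDA subunit Grin1 (70.1 and 201 CPM) and the kainate subunit Grik1 (307 and 626 CPM). The delta receptor gene Grid1 (169 and 83.6 CPM) and the kainate subunit Grik3 (74.3 and 32.1 CPM) were higher, and both rose in the fit. Of 30 genes of vesicle release 6 were lower and 0 higher, against 10.4% and 6.63% of all genes (median log2 ratio -0.36). Cplx2, which clamps vesicle fusion (chromosome 13 from 54371349 to 54383917), had 6 UMIs in injury-profile nuclei and 162 in matched zero nuclei (6.37 and 174 CPM, ratio 0.0367, 0.0133 to 0.0817), the smallest ratio of the genes named by rule. Its relative Cplx1 had 569 and 625 CPM. The vesicle gene Rph3a, outside the list, had 44.6 and 355 CPM.

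Further genes among the 15 smallest ratios were Pcp4l1, a relative of a calmodulin regulator (24.4 CPM in injury-profile nuclei and 345 CPM in matched zero nuclei), the pentraxin gene Nptx1 (9.56 and 119 CPM), Mrgpra2b of the itch receptor family (8.50 and 105 CPM), Ly6h (12.7 and 118 CPM), the nicotinic receptor subunit Chrna7 (8.50 and 67.5 CPM), Col11a1 (10.6 and 82.5 CPM) and Trib2 (13.8 and 104 CPM). All of these fell in the fit over the 4 libraries. The sum over all control 10x nuclei, not matched on depth, gave 123 CPM for Pcp4l1 and 35.2 CPM for Mrgpra2b, well under the matched zero nuclei of day 7. For Nptx1, Ly6h, Chrna7, Col11a1 and Trib2 it gave 139, 92.1, 63.0, 70.2 and 90.7 CPM. Extl2 and the purinergic receptor P2ry1, each with 6 UMIs in injury-profile nuclei and 54 in matched zero nuclei, did not pass it (edgeR adjusted p = 0.0646 and 0.109). At day 75 Extl2 had 51.1 and 49.9 CPM and P2ry1 38.8 and 24.6 CPM, so neither was lower there.

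**Figure D3:**
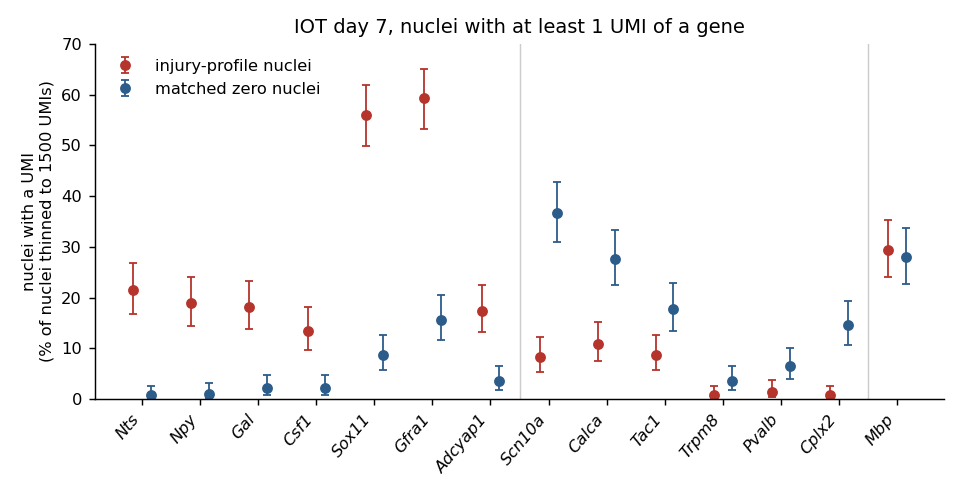
Share of nuclei with at least 1 UMI of a gene at IOT day 7, with every nucleus thinned to 1500 UMIs (vertical axis, % of 275 nuclei in each group), for injury-profile nuclei (red, left) and matched zero nuclei (blue, right), with 95% Clopper-Pearson intervals. Nts was in 21.5% against 0.727%, Scn10a in 8.36% against 36.7%, and the glial gene Mbp was in 29.5% against 28%.

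Which kinds of neuron carried the profile can be read in part from genes that mark large and small neurons, though many of these were themselves lower. Genes of small diameter neurons were lower for 15 of 21 (median log2 ratio -1.43), against 10.4% of all genes, and summed to 1998 CPM in injury-profile nuclei and 5133 CPM in matched zero nuclei. Genes of large diameter neurons were lower for 6 of 24 (median -0.68) and summed to 8978 and 12190 CPM. More UMIs of large than of small neuron genes were found in 292 injury-profile nuclei (91.5%, interval 87.9 to 94.3%) and in 228 matched zero nuclei (71.5%, 66.2 to 76.4%). No UMI of any of 18 subtype markers was found in 45 injury-profile nuclei (14.1%) and 10 matched zero nuclei (3.13%). Pvalb, of proprioceptors and some mechanoreceptors, had 15.9 CPM in injury-profile nuclei and 67.5 CPM in matched zero nuclei, and Tshz2 346 and 961 CPM, while Pcdh7 had 430 and 530 CPM. A group with fewer small neurons and a group whose neurons hold less RNA of each marker would give the same sums, and these cannot be told apart here. The same holds for the peptide, channel and receptor genes above.

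Transcription factors that set the identity of sensory neurons were lower for 10 of 25 and higher for 0 at day 7 (median log2 ratio -0.79), against 10.4% and 6.63% of all genes, and in the fit 14 of 34 fell and 3 rose, against 7.20% and 10.0%. Bcl11b had 4.25 CPM in injury-profile nuclei and 38.6 CPM in matched zero nuclei, Etv1 4.25 and 27.9 CPM, Prdm12, needed for pain neurons, 79.7 and 242 CPM, and the pan-sensory factor Isl1 73.3 and 202 CPM. Runx1, of small pain and itch neurons, had 78.6 and 172 CPM. These 5 fell in the fit as well. Bcl11b and Etv1 reached 20 CPM only in matched zero nuclei, so they could not have been called higher. Pou4f1, the other pan-sensory factor, had 58.4 and 147 CPM at day 7 and did not pass the fit (log2 fold change -0.45 ± 0.17, adjusted p = 0.0889). Other factors differed less at day 7, with Ebf1 at 919 and 1132 CPM and Tbx3 at 42.5 and 42.9 CPM.

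Of 25 genes that the paper singled out as induced or repressed in these samples, the 11 induced ones were all higher at day 7 and the 14 repressed ones were lower for 12. The first summed to 5082 CPM in injury-profile nuclei and 874 CPM in matched zero nuclei, and the second to 2157 and 6070 CPM. Both lists were chosen on these libraries and are no independent evidence of a direction. They serve here to follow how strongly a nucleus carried the profile. Nuclei of day 7 were sorted by their summed gate UMIs into 8 classes, from 0 to 10 or more. The induced genes had 911 CPM at 0 UMIs, 1132 at 1, 2132 at 2, 3602 at 3 and 4325 at 4, and 4565, 4903 and 6075 CPM at 5 to 6, 7 to 9 and 10 or more. The repressed genes had 6302, 5661, 4475, 2813, 3606, 2184, 1624 and 1466 CPM over the same classes. Regeneration-associated genes had 4667 CPM at 0 and 11860 CPM at 10 or more, and potassium channels 8393 and 4037 CPM.

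The nuclei just outside the gate were thus not like zero nuclei. The 98 nuclei with 3 UMIs stood nearer to the 88 with 4 UMIs than to the 2841 with 0 for both lists. Median depth was 1650 UMIs at 0, 1874.5 at 3 and 3828 at 10 or more. Satellite glia markers had 398 CPM at 0 and 740 CPM at 10 or more, and Schwann cell markers had 1759 to 2386 CPM over the classes. The part of depth and of glial RNA in the trend was not tested.

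**Figure D4:**
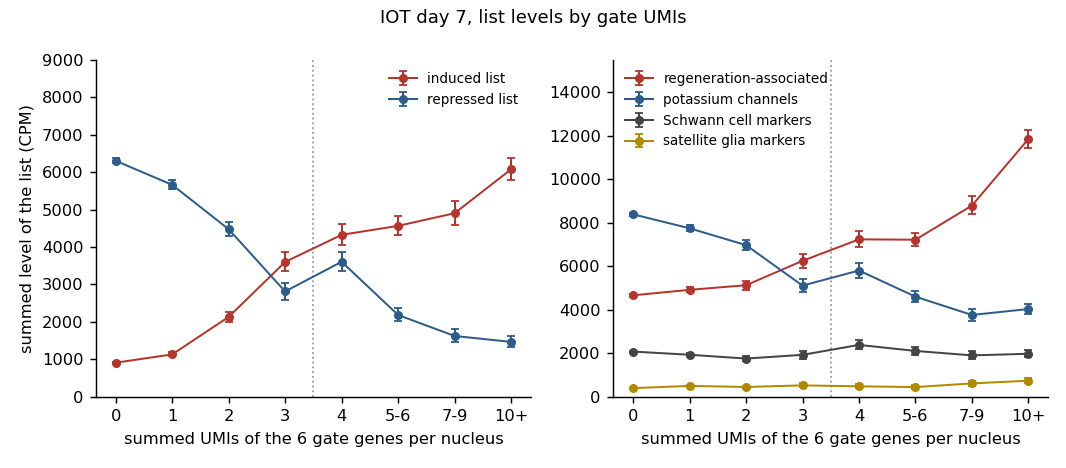
Summed CPM of gene lists (vertical axis) in day 7 nuclei grouped by their UMIs of the 6 gate genes (horizontal axis, from 0 to 10 or more), with 95% exact Poisson intervals. Induced genes had 911 CPM at 0 and 6075 CPM at 10 or more, repressed genes 6302 and 1466 CPM, and glial markers moved less.

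Injury-profile nuclei were not uniform. At 1500 UMIs per nucleus, 275 of them could be compared, and 1909 genes with at least 100 CPM were ranked by variance over mean, which is 1 for counting noise alone and had a median of 1.13. After Malat1 (69.6), the largest values belonged to Gm16599, an antisense transcript within Cux1 (11.3), Spag5 (7.82), Mad1l1 (6.57) and 3300002A11Rik, antisense to Foxn3 (5.95). Gm16599 was seen in 18 of 275 nuclei and reached 22 UMIs in 1 of them. Gal followed (5.42, in 50 nuclei, up to 12 UMIs), then Grik1 (5.31, in 32 nuclei), the adhesion gene Kirrel3 (5.23, in 23 nuclei), the protease inhibitor Spint2 (4.83, in 46 nuclei) and the channel regulator Kcnip4 (4.22, in 158 nuclei). Gal was thus carried by a minority of injury-profile nuclei at a high level rather than by all at a low one. Gfra1 and Gal were seen together in 48 nuclei, Gfra1 alone in 171, Gal alone in 33 and neither in 67. Pcdh7 and Tshz2 were seen together in 48 nuclei, Pcdh7 alone in 120, Tshz2 alone in 78 and neither in 73.

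Compared with injury-profile nuclei of the other IOT days, those of day 7 differed from matched zero nuclei largely in the same directions. In the 4-library fit 1674 genes past the threshold had the same direction in 4 of 4 libraries. They were 933 of the 1081 genes that rose and 741 of the 779 that fell. Of the 167 genes named by rule, 36 were called higher at day 7 and 34 of these rose in the fit, and 37 were called lower and 33 fell. That fit includes day 7, and some genes were named for their day 7 ratios, so neither count is independent evidence of agreement. In the fit without day 7, 519 of the 533 higher genes and 788 of the 884 lower genes had the same sign. Of these genes, 349 and 259 passed the threshold in the same direction. The induced neuropeptides summed to 324, 843, 790 and 224 CPM in injury-profile nuclei of days 2, 7, 21 and 75, against 30.2, 21.4, 39.0 and 17.9 CPM in matched zero nuclei. Regeneration-associated genes summed to 6216, 9051, 8710 and 5897 CPM in injury-profile nuclei, against 3654, 4812, 4467 and 4663 CPM in matched zero nuclei. Day 7 had the highest value of the 4 in injury-profile nuclei for both lists. For regeneration-associated genes the day 7 value in matched zero nuclei (4812 CPM) was also the highest of the 4. Levels compared over days are scaled to the UMIs of genes listed in all 4 libraries, and therefore differ slightly from those of day 7 alone.

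**Figure D5:**
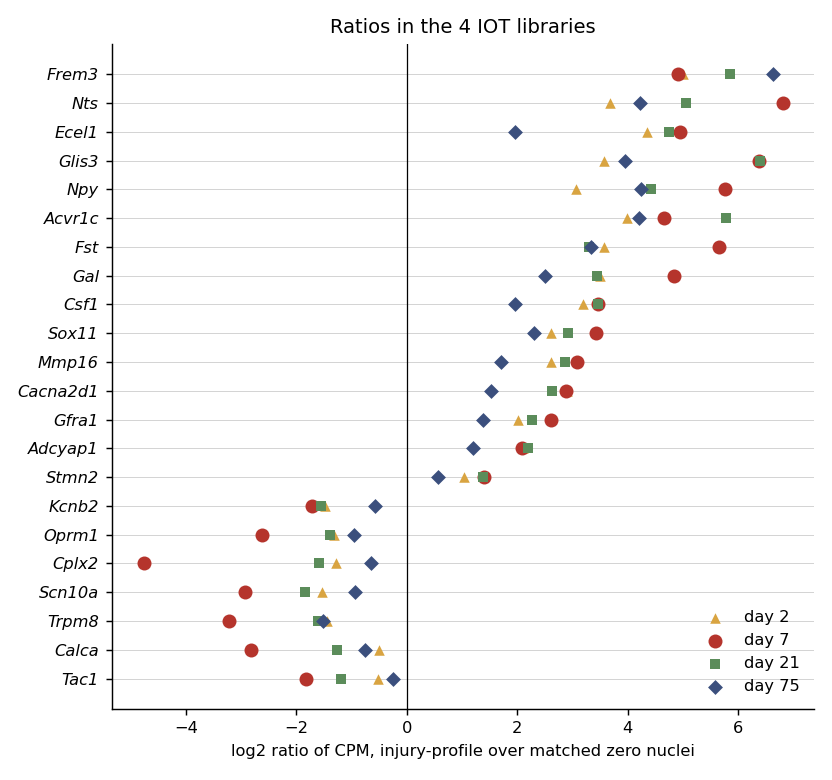
log2 ratio of CPM, injury-profile over matched zero nuclei, for 22 genes (rows) in the IOT libraries of days 2, 7, 21 and 75, each day with its own marker. All 22 lie on the same side of 0 in the 4 libraries. They were picked for display from the genes named in the text, and genes that changed side, such as Extl2 and P2ry1, are not shown. Day 7 is the most negative for Cplx2, Scn10a, Trpm8, Calca and Tac1, and the day 75 point of Ecel1 is a bound against 0 UMIs in matched zero nuclei.

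Whether the difference between injury-profile and matched zero nuclei at day 7 departed from that of days 2, 21 and 75 was tested by an interaction term over the 8 sums. In the edgeR fit 0 of 10815 genes (0%) passed an adjusted p of 0.05, with 642 at an unadjusted p under 0.05. The test had 2 residual degrees of freedom and 1 library on the day 7 side. The smallest adjusted p among the genes named were those of Cplx2 and Pcp4l1. Cplx2 departed by -3.48 ± 0.53 and Pcp4l1 by -2.81 ± 0.44 on the log2 scale (adjusted p = 0.365 for both, with ranges over the alternatives of 0.00157 to 0.365 for Cplx2 and 0.00132 to 0.635 for Pcp4l1). Both passed without day 75, and 0 genes passed without day 2 or day 21. Over days 2, 7, 21 and 75 Cplx2 had 48.0, 6.38, 37.2 and 89.2 CPM in injury-profile nuclei, against 117, 174, 112 and 139 CPM in matched zero nuclei. Pcp4l1 had 85.4, 24.5, 65.5 and 176 CPM in injury-profile nuclei, against 170, 345, 176 and 217 CPM in matched zero nuclei. For both genes day 7 had the lowest of the 4 injury-profile values and the highest of the 4 matched zero values. DESeq2 called 1 gene, Pcp4l1 (adjusted p = 0.00994). With every nucleus of every library thinned to 1500 UMIs before the gate, an alternative added after seeing the data, 19 of 3918 genes passed, 3 higher and 16 lower at day 7, among them Pcp4l1 (-3.71, adjusted p = 0.0161), Rph3a (-2.90, adjusted p = 0.0321), Spint2 (-2.75, adjusted p = 0.000748) and Ngfr (-2.72, adjusted p = 0.0311). Day 7 was also the shallowest library, and its part in these departures was not tested beyond this thinning.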

How the data were processed

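Nuclei of trigeminal ganglia were profiled with 10x version 2 chemistry, and partly Drop-seq for controls. The submitters' processing notes name bcl2fastq 2.17, Cell Ranger 2.1.0, STAR 2.5.3a, Seurat 2 and mm10, and the authors deposited UMI counts per gene and nucleus, with introns counted, after filtering nuclei and removing non-neuronal clusters. Members and gene lists were chosen with earlier results of these data known.

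Counts were summed over the nuclei of a group. Zero nuclei were matched 1 to 1 on UMIs without replacement, and the 6 gate genes and 3 overlapping genes were left out. Day 7 ratios carry exact conditional binomial 95% intervals and shares Clopper-Pearson intervals, which cover counting error only. Where a group had 0 UMIs, 3 counts were used as its floor. Genes with at least 20 CPM in the higher group were called at a ratio of 2 or 0.5. Sums of the 4 IOT libraries (8 sums) were tested with edgeR 4.0.16 (quasi-likelihood, TMM, its low-count filter, library as block, 3 residual degrees of freedom, Benjamini-Hochberg adjustment). Standard errors were derived from the F statistic. The block pairs the 2 sums of one library, which come from the same mice. The scripts were tested on simulated data.

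The genes named were the 15 largest ratios each way at 50 CPM or more whose interval stayed beyond 2-fold, up to 4 members of each of 32 lists by UMIs, all members of the paper lists, class markers and induced neuropeptides, any departures past the threshold, and the 10 most variable genes. Further list members were named after their values were seen. Alternatives were other gates, Scrublet scores (scanpy 1.11.5), depth, glial share, scaling, filters, control nuclei as reference, DESeq2 1.42.0, and each library left out. Scrublet called 0 of 4033 nuclei doublets, so only its score was used, and 5% of nuclei with the highest scores were left out. Coordinates are from GENCODE vM21 (GRCm38), and antisense or overlapping genes can share reads where noted. Drop-seq was left out of all comparisons of genes. A few named genes are not reported here.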

Additional observations from a re-analysis of the deposited data

Results flagged for a closer look

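In data outside the comparisons of genes, nuclei that passed the gate were more frequent than in the control. The gate took 124 of 8660 nuclei after facial skin cuts (1.43%, 1.19 to 1.70%) and 277 of 7829 nuclei after scratch lesions (3.54%, 3.14 to 3.97%), against 0.343% of control 10x nuclei (0.192 to 0.566%). After thinning to 1500 UMIs the shares were 0.686%, 1.74% and 0%, with an upper limit of 0.0844% for the control. Scratch lesion mice were transgenic on a mixed strain background, each condition is 1 library, and Sprr1a is not listed in the control table. The part of these in the shares was not tested.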

How the results depend on the processing

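The share of injury-profile nuclei at day 7 was 10.0% at a gate of 3 UMIs, 4.39% at 6 UMIs, 6.00% with at least 3 genes and 5.48% with Atf3 left out, and 7.65 to 7.86% without the 5% of nuclei highest in Scrublet score, UMIs or glial share. The day 7 calls numbered 306 higher and 433 lower at 50 CPM, 1253 and 2066 with no filter but 1 UMI, and 1189 and 1211 against control 10x zero nuclei. Against those, Mrgprd (log2 ratio 0.36) and Spint2 (0.21) turned to higher. In the fit over IOT libraries, genes higher and lower numbered 591 and 430 by DESeq2, 365 and 360 with every nucleus thinned to 1500 UMIs before the gate, and 520 to 1458 and 383 to 998 with 1 library left out, the fewest without day 2. Without day 7 they were 692 and 417, and without day 21 671 and 415. With no TMM they were 863 and 930. With no replicate block, which ignores that both sums of a library come from the same mice, 135 rose and 18 fell. Departures of day 7 numbered 1 by DESeq2, 2 with no TMM (Cplx2 and Pcp4l1), 5 with no filter (with Calca, Nptx1 and Rph3a), 19 thinned and 0 to 2 with 1 library left out. The causes were not tested. Of 160 named genes thinned to 1500 UMIs after the gate, 0 reversed. Of 154 named genes in the fit, calls were lost for 16 to 18 without day 2, 7 or 21 and for 0 without day 75, and for 63 with no replicate block. Genes under 20 CPM could not be compared at this depth.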
